A study of Homo sapiens with 18 samples.

Results

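Secreted signals of epithelium were followed through 10 genes: the neutrophil-attracting chemokines CXCL1, CXCL2, CXCL3 and CXCL8, the other chemokines CXCL14, CXCL16, CCL20 and CCL28, and the interleukin-6 family cytokines IL6 and LIF. The 10 genes were taken by name from the 42141 genes of the deposited tables. CXCL14 was included because its response to the dimerizer had been seen to run in opposite directions in the 2 genotypes, so its values are given as a description. The libraries came from MCF-10A.B2 cells, a line of the non-transformed human mammary line MCF-10A that carries a chimeric HER2 receptor whose kinase part is switched on when a drug pairs the molecules. The cells were grown as acini on GFR matrigel for 21 days. On day 7, EGF was removed and replaced for 14 days with ethanol (control), the B/B homodimerizer (dimerizer), or the homodimerizer together with TGF-β1. Each treatment was given to WT and to JNKKO cells, which makes 6 groups of 3 libraries. No group received TGF-β1 without the dimerizer. The labels do not give which JNK genes were disrupted, whether the JNKKO line is 1 clone, or whether the 3 libraries of a group were separate cultures, so p-values measure the spread between these libraries, which may be technical.

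Chemokines are small secreted proteins that draw white blood cells along a gradient by binding receptors on them. CXCL1, CXCL2, CXCL3 and CXCL8 attract neutrophils through CXCR2, and CXCL8 does so through CXCR1 as well. Epithelium makes these chemokines on inflammatory stimulation, with NF-κB as the best known activator of their genes. LIF and IL6 signal through receptor complexes that share the gp130 chain, the product of IL6ST, and pass the signal on through JAK kinases and STAT3. JNK kinases act on AP-1 transcription factors, and TGF-β1 acts on epithelium as a growth inhibitor and as an inducer of mesenchymal genes.

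The library totals ran from 24243537 to 34499651 expected counts. Basal keratin KRT5 lay between 3124 and 8739 CPM (counts scaled to library size and composition), and the T cell gene CD3E had at most 2 counts. KRT5 averaged 8402 CPM in WT control and 3251 CPM in JNKKO with TGF-β1. Between these groups the basal markers KRT14, ITGB4 and CDH3 were higher in the latter, at 354, 3935 and 494 CPM against 219, 1270 and 232 CPM. The basal markers TP63 and KRT17 were not. Of 6 luminal markers, ELF5 had 0 and KRT19 at most 3 counts in any library, while KRT8 was at 96.8 to 376.2 CPM and KRT18 at 130.6 to 195.2 CPM. The 6 summed to 540.7 to 573.4 CPM in JNKKO with TGF-β1, 448.1 to 495.5 CPM in WT with TGF-β1 and 252.2 to 387.8 CPM in the other groups, and their part in the results was not tested. MAPK9 (JNK2) was lower in each JNKKO group, at 42.1 to 53.9 CPM over its 9 libraries against 57.1 to 68.4 CPM in WT, while MAPK8 (JNK1) was higher in JNKKO control by 0.47 ± 0.06 log2 and lower in JNKKO with TGF-β1 by 0.32 ± 0.06. The labels name no disrupted exon, so these levels check the labels only in part. The library WT dimerizer with TGF-β1 replicate 3 carries a genotype tag that contradicts its title. It was grouped by title, and its group had 64.7 to 68.4 CPM of MAPK9 over all 3 libraries. Most of the members' fitted differences that rest on it are also given without it. The shares of summed TPM and the correlations of profile include it. The genes of the lists were not refitted without it. The share of mitochondrially encoded transcripts set 2 groups apart, at 15.2% ± 0.131 in WT control and 5.38% ± 0.166 in JNKKO dimerizer with TGF-β1 (SD, n = 3), against group means from 8.90% to 10.8% elsewhere.

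The 4 neutrophil chemokines lie in 1 cluster on chromosome 4 (hg38): CXCL8 at 73740506-73743716 and CXCL1 at 73869393-73871242 on the plus strand, CXCL3 at 74036589-74038807 and CXCL2 at 74097035-74099293 on the minus strand. The sequences directly before their starts are shown because CXCL1, CXCL2 and CXCL3 are near copies of each other whose levels differed across these groups. The CXCL14 and CCL20 sequences are shown beside them for contrast. Each is the 150 bases before the start annotated by RefSeq on GRCh38.p14, read 5′ to 3′ on the gene's own strand. GENCODE 29 begins CXCL2, CXCL3 and CXCL8 somewhat further upstream, inside these windows, and CXCL14 and CCL20 upstream of theirs. Capitals mark matches to an NF-κB type motif (GGAATTTCC, or a form that runs GGG, any 2 bases, TTTCC) or an AP-1 type motif (TGANTCA), searched on both strands. The 2 NF-κB type motifs overlap in CXCL1, CXCL2 and CXCL3.
CXCL1, chr4:73869243-73869392, plus strand: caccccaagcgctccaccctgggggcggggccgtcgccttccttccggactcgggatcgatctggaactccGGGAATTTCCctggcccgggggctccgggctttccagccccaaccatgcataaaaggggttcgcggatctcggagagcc
CXCL2, chr4:74099196-74099345, minus strand: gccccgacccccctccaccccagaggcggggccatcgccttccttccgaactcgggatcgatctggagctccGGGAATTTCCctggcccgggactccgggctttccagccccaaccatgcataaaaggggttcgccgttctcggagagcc
CXCL3, chr4:74038690-74038839, minus strand: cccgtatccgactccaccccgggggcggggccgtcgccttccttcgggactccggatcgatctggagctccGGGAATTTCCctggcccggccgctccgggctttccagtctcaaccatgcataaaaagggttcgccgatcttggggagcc
CXCL8, chr4:73740419-73740568, plus strand: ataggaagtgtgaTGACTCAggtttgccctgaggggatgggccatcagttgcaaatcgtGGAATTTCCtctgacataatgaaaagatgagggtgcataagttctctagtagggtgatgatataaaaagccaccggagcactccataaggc
CCL20, chr2:227813692-227813841, plus strand: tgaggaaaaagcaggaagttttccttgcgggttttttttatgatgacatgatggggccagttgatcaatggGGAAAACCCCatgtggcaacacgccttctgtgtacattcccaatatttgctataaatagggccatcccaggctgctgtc
CXCL14, chr5:135578992-135579141, minus strand: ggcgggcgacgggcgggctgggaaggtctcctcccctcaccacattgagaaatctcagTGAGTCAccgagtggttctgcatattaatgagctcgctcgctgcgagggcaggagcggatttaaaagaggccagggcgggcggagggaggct

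Aligned end to end, the CXCL1 and CXCL2 windows were identical at 88.7% of 151 columns, CXCL1 and CXCL3 at 88.1%, and CXCL2 and CXCL3 at 86.1%, while CXCL1 and CXCL8 were identical at 45.1% of 164 columns. The same NF-κB type letters, GGGAATTTCC, ended 69 or 70 bases before the start in CXCL1, CXCL2 and CXCL3. In CXCL8 a shorter match ended 83 bases before the start, with an AP-1 type match further out, and in CCL20 the match was on the opposite strand. IL6 also held an NF-κB type match, ending 64 bases before its start. CXCL14 held the AP-1 type match alone, and the 2 CCL28 starts held neither in the 250 bases searched. A CRE type motif (TGACGTCA) was found in none of the 8 genes with a window, beside 1.65% of all windows. Among 35116 RefSeq windows of that length, 2.00% held 1 or both NF-κB type motifs and 6.57% held the AP-1 type motif. A match is a run of letters and does not show that a factor was bound, and its absence says nothing of a factor. CXCL16 and LIF had no RefSeq window here.

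**Figure D1:**
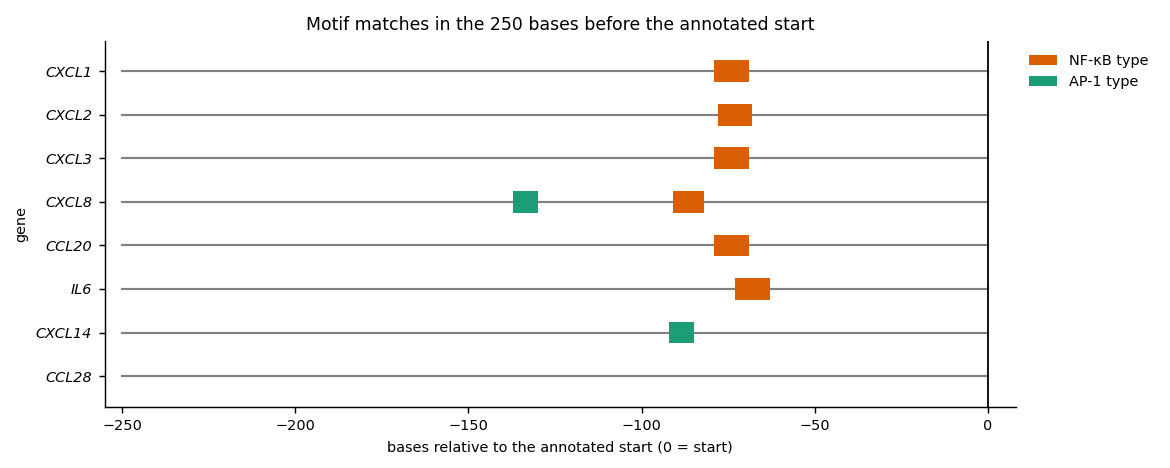
Positions of NF-κB type (orange) and AP-1 type (green) motif matches in the 250 bases before the RefSeq start of 8 genes, in bases relative to the start on the gene's own strand, with 1 line for CCL28, neither of whose 2 starts held a match. The matches of CXCL1, CXCL2 and CXCL3 end 69 or 70 bases before the start, and CXCL14 holds an AP-1 type match only.

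CXCL1 was the neutrophil chemokine with the highest mean level per length over the 18 libraries, 15.8 TPM (transcript counts scaled by length and library size). Its 3 WT control libraries had 3.62, 3.16 and 3.79 CPM, and WT dimerizer had 3.22, 4.11 and 3.88 CPM. JNKKO control had 4.05, 4.13 and 3.45 CPM and JNKKO dimerizer had 3.89, 5.30 and 4.44 CPM, so neighbouring groups overlapped, while WT control lay below JNKKO dimerizer. With TGF-β1 added, WT libraries reached 5.53, 5.07 and 8.05 CPM and JNKKO libraries reached 34.0, 36.3 and 39.1 CPM. The 3 JNKKO libraries with TGF-β1 thus stood well above the highest other library, at 8.05 CPM. The rise with TGF-β1 over dimerizer alone was 1.66-fold in WT (log2 difference 0.73 ± 0.15 SE) and 7.95-fold in JNKKO (2.99 ± 0.13). The adjusted p values, from edgeR's quasi-likelihood test with Benjamini-Hochberg adjustment over 16911 genes, were 0.000136 and 9.21e-16. The 2 responses differed by 2.26 ± 0.20 log2 (adjusted p = 7.44e-09, test of the interaction). Without WT dimerizer with TGF-β1 replicate 3, the highest of its group, the WT rise was 0.49 ± 0.13 and the difference 2.51 ± 0.17.

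CXCL8, the potent neutrophil attractant interleukin-8, was lowest in WT control, with 0.508, 1.03 and 0.705 CPM. WT dimerizer had 1.86, 1.84 and 1.77 CPM, JNKKO control 1.27, 1.13 and 1.95 CPM, and JNKKO dimerizer 2.48, 3.54 and 2.83 CPM. With TGF-β1 the WT libraries had 1.84, 2.22 and 4.41 CPM and the JNKKO libraries 19.999, 21.733 and 29.849 CPM. The 3 JNKKO libraries with TGF-β1 stood far above all others, of which the highest was at 4.41 CPM. TGF-β1 raised CXCL8 7.99-fold over dimerizer alone in JNKKO (3.00 ± 0.26 log2, adjusted p = 1.19e-07, edgeR). In WT the difference was 0.64 ± 0.33 and did not pass (adjusted p = 0.109), and without replicate 3 it was 0.15 ± 0.26. It passed without replicate 1 of that group (0.87 ± 0.32, adjusted p = 0.0295) and with no filter on low counts (0.64 ± 0.16, 0.000177). The interaction was 2.36 ± 0.43 (adjusted p = 0.000725), and 2.87 ± 0.32 without that library. Against its own control, JNKKO with TGF-β1 was 16.5-fold higher (4.05 ± 0.29), the largest fitted difference among the members tested in any comparison.

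The dimerizer alone also raised CXCL8, 2.43-fold in WT (1.28 ± 0.43, adjusted p = 0.0208) and 2.07-fold in JNKKO (1.05 ± 0.36, adjusted p = 0.0330), by edgeR's quasi-likelihood test. Both calls rest on few counts, since the 3 WT control libraries held 16, 32 and 21 counts. The WT call was lost without WT control replicate 1 (adjusted p = 0.0836) or replicate 3 (0.0607). The JNKKO call was lost without JNKKO control replicate 1 (adjusted p = 0.101) or 2 (0.112), or JNKKO dimerizer replicate 2 (0.126) or 3 (0.0616).

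CXCL3, the third of the near copies, was low throughout. Its WT control libraries had 1.11, 0.807 and 0.873 CPM, WT dimerizer 1.16, 1.14 and 0.983 CPM, and WT dimerizer with TGF-β1 0.574, 0.630 and 1.11 CPM. JNKKO control had 0.810, 1.66 and 1.30 CPM, JNKKO dimerizer 0.940, 2.14 and 1.71 CPM, and JNKKO dimerizer with TGF-β1 5.71, 4.96 and 5.43 CPM. Again the 3 JNKKO libraries with TGF-β1 were separate from all others, which overlapped. TGF-β1 raised CXCL3 3.29-fold in JNKKO (1.72 ± 0.23, adjusted p = 2.00e-07), and the WT difference was -0.50 ± 0.29 (adjusted p = 0.136). Without replicate 3 the WT difference was -0.86 ± 0.32 and passed (adjusted p = 0.0218). The responses differed by 2.21 ± 0.37 log2 (adjusted p = 2.96e-05), and by 2.60 ± 0.38 without that library.

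CXCL2 differed from these 3. WT control had 5.62, 4.81 and 5.94 CPM, WT dimerizer 9.53, 11.8 and 10.2 CPM, and WT dimerizer with TGF-β1 4.23, 4.14 and 5.15 CPM. JNKKO control had 8.45, 8.72 and 8.81 CPM, JNKKO dimerizer 9.01, 7.98 and 7.21 CPM, and JNKKO dimerizer with TGF-β1 6.06, 5.74 and 7.88 CPM. WT dimerizer was the highest group and did not overlap any other. The dimerizer raised CXCL2 1.93-fold in WT (0.95 ± 0.12, adjusted p = 6.67e-08), and in JNKKO the difference was -0.11 ± 0.12 (adjusted p = 0.495). The interaction was -1.06 ± 0.17 (adjusted p = 6.58e-06). With TGF-β1, CXCL2 fell in WT by 1.22 ± 0.12 log2, a 2.33-fold drop (adjusted p = 3.86e-10), or -1.34 without WT replicate 3. In JNKKO it was lower by 0.29 ± 0.12 log2 at an adjusted p of 0.0364, a call lost in DESeq2 (0.0640), in limma on log2(TPM + 1) (difference -0.05, adjusted p = 0.749) and without JNKKO dimerizer replicate 1 or 2 or JNKKO dimerizer with TGF-β1 replicate 1 or 2. The 2 responses to TGF-β1 differed by 0.93 ± 0.17 (adjusted p = 9.46e-05), or by 1.06 ± 0.18 without WT replicate 3. Against WT control, CXCL2 with both agents was at -0.27 ± 0.13 (adjusted p = 0.0694), which passed without WT replicate 3 (-0.41, 0.0172), without WT control replicate 2 (-0.36, 0.0325) and with mitochondrial genes left out (-0.30, 0.0489). Against JNKKO control, CXCL2 with both agents was at -0.40 ± 0.12 (adjusted p = 0.00404, edgeR). That call was lost in limma on log2(TPM + 1) (-0.18, adjusted p = 0.177) and on log2(TPM + 0.1) (-0.20, 0.177). TGF-β1 therefore raised CXCL1, CXCL3 and CXCL8 in JNKKO cells but not CXCL2. The windows before the starts of CXCL1 and CXCL2 were identical at 88.7% of columns, and their part in this difference was not tested.

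**Figure D2:**
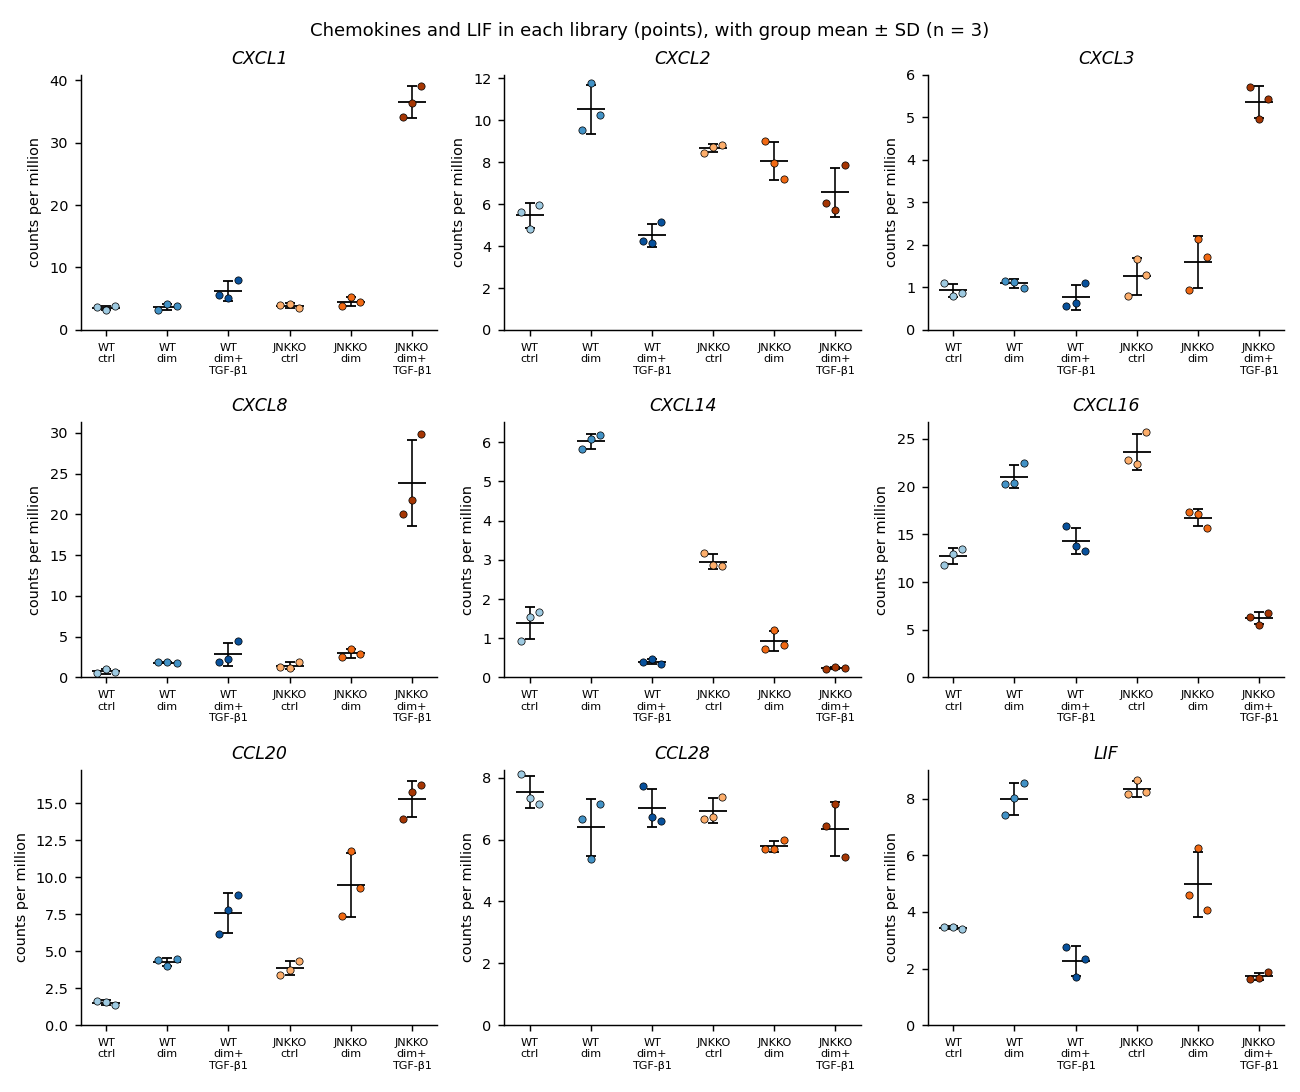
CPM of 9 members in each library (points) by group, with the mean and SD of 3 libraries (bars); ctrl is ethanol and dim is the B/B homodimerizer, and each panel has its own scale from 0. CXCL1, CXCL3 and CXCL8 stand out in JNKKO dimerizer with TGF-β1, whereas CXCL14, CXCL16 and LIF are lowest there.

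The make-up of the 4 neutrophil chemokines changed with these differences. Per length, they summed to 13.9 ± 1.03 TPM in WT control and to between 19.8 and 23.5 TPM on average in the next 4 groups. In JNKKO dimerizer with TGF-β1 they summed to 104.1 ± 13.0 TPM. CXCL2 made up 49.1% ± 1.25 of the sum in WT control and 60.7% ± 0.707 in WT dimerizer, but 9.23% ± 0.739 in JNKKO dimerizer with TGF-β1 (SD, n = 3). CXCL1 made up 36.3% ± 0.387 in WT control and 59.1% ± 2.54 in JNKKO with TGF-β1, and CXCL8 made up 4.74% ± 1.94 and 22.7% ± 2.76. In WT with TGF-β1 the order also had CXCL1 first, at 49.3% ± 1.56, with CXCL2 at 31.9% ± 3.66. CXCL3 stayed between 6.15% and 10.7% on average in all 6 groups.

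**Figure D3:**
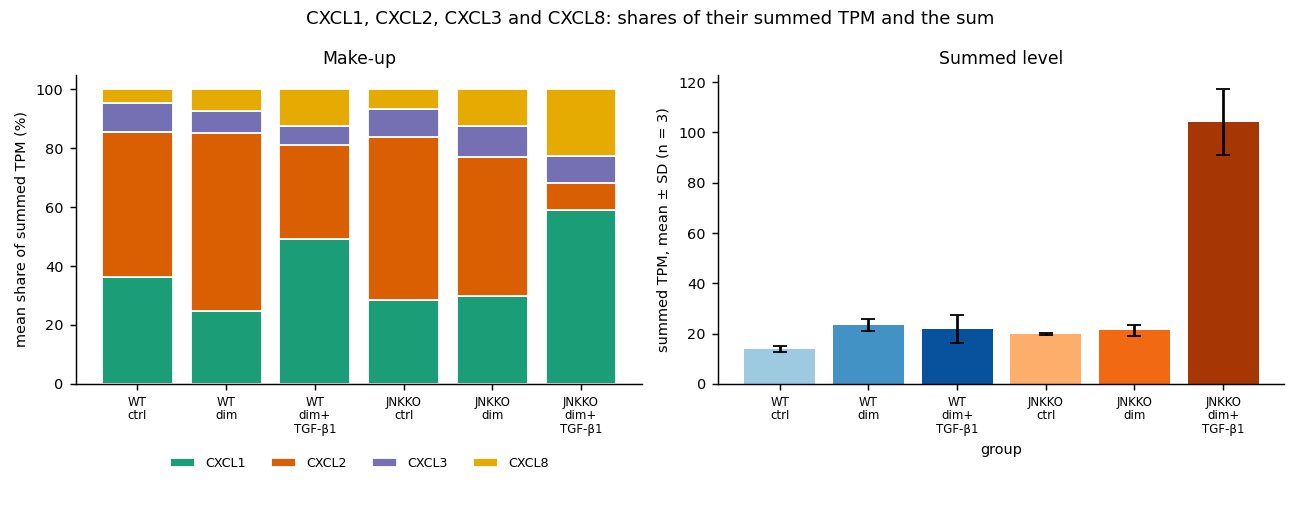
Left, the mean percentage of the summed TPM of CXCL1, CXCL2, CXCL3 and CXCL8 that each gene made up in each group. Right, the summed TPM (bars, mean with SD of 3 libraries): JNKKO dimerizer with TGF-β1 is at 104.1 TPM, and CXCL2 falls to 9.23% of the sum there.

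Reads could in principle be shared between the near copies, since the coding sequences of CXCL1 and CXCL2 were identical at 93.5% of 324 bases, CXCL1 and CXCL3 at 90.7% and CXCL2 and CXCL3 at 94.4%. None of the 998 windows of 100 bases in the CXCL1 transcript, the 1119 in CXCL2 or the 976 in CXCL3 occurred in a transcript of another gene in GENCODE 29. All 180 deposited counts of the 10 members were whole numbers, although RSEM writes fractions where it divides reads between genes. The 3′ ends of these mRNAs carry the pentamer ATTTA, a signal for rapid decay read by ZFP36 family proteins. CXCL2 had 10 of them in 721 bases of 3′ UTR, CXCL3 had 7 in 673, CXCL1 had 5 in 706 and CXCL8 had 9 in 1252. Per length all 4, with CCL20 and IL6, lay at percentiles 96.0 to 99.5 of 18798 protein-coding genes, and CXCL14, CXCL16, CCL28 and LIF at 38.6 to 68.5.

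CCL20, the ligand of CCR6 that draws dendritic cells and subsets of T cells, rose in every step. WT control had 1.65, 1.55 and 1.34 CPM, WT dimerizer 4.42, 3.97 and 4.44 CPM, and WT dimerizer with TGF-β1 6.13, 7.76 and 8.83 CPM. JNKKO control had 3.42, 3.74 and 4.37 CPM, JNKKO dimerizer 7.39, 11.8 and 9.27 CPM, and JNKKO dimerizer with TGF-β1 13.9, 15.8 and 16.2 CPM. Within each genotype the 3 treatments did not overlap, and in each treatment all 3 JNKKO libraries lay above all 3 WT libraries. The dimerizer raised CCL20 2.81-fold in WT (1.49 ± 0.19, adjusted p = 3.15e-07) and 2.49-fold in JNKKO (1.32 ± 0.15, 1.43e-07). TGF-β1 added 0.82 ± 0.15 log2 in WT and 0.68 ± 0.13 in JNKKO, both past the threshold (adjusted p = 2.43e-05 and 5.87e-05). Without WT replicate 3 the WT value was 0.69 ± 0.15. JNKKO was above WT by 1.33 ± 0.20, 1.16 ± 0.14 and 1.02 ± 0.13 log2 in control, dimerizer and dimerizer with TGF-β1, each past the threshold. Neither interaction passed: -0.17 ± 0.25 with the dimerizer (adjusted p = 0.612) and -0.14 ± 0.19 with TGF-β1 (0.623), or 0.0062 without WT replicate 3. CCL20 had the highest mean TPM of the 10 members, 16.5, with 38.3 ± 3.10 TPM in JNKKO dimerizer with TGF-β1.

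CXCL14 is a chemokine made by unstimulated epithelium that attracts monocytes and other white cells. WT control had 0.921, 1.55 and 1.68 CPM, and WT dimerizer had 5.81, 6.07 and 6.18 CPM. JNKKO control had 3.17, 2.86 and 2.84 CPM, and JNKKO dimerizer had 0.726, 1.21 and 0.837 CPM. With TGF-β1, WT had 0.393, 0.464 and 0.339 CPM and JNKKO 0.210, 0.268 and 0.252 CPM, which are 11 to 14 and 6 to 8 counts per library. In WT all dimerizer libraries were above all control libraries, and in JNKKO all were below. Since CXCL14 was chosen for this, the values are given without a test: 2.12 ± 0.18 log2 in WT and -1.65 ± 0.21 in JNKKO, a difference between genotypes of -3.77 ± 0.27. TGF-β1 libraries were lower than dimerizer libraries by 3.91 ± 0.22 log2 in WT and by 1.93 ± 0.31 in JNKKO, and the WT value was -3.81 without replicate 3. The comparison that did not enter the choice, JNKKO against WT with both agents, gave -0.70 ± 0.36 (adjusted p = 0.112, edgeR) and -0.78 ± 0.40 without WT replicate 3 (0.106). On log2(TPM + 1) the WT and JNKKO dimerizer differences were 1.57 and -0.98, since the added 1 TPM shrinks differences between values of that size. The differences with TGF-β1 were -2.17 and -0.49 on that scale, and -3.46 and -1.31 on log2(TPM + 0.1). On the latter, JNKKO against WT with both agents passed at -0.56 (adjusted p = 0.0302).

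CXCL16, a membrane-bound chemokine and scavenger receptor that is shed to attract CXCR6-bearing T cells, was the member with the most counts, 8568 over the 18 libraries. WT control had 11.8, 12.9 and 13.5 CPM, WT dimerizer 20.3, 20.4 and 22.4 CPM, and WT dimerizer with TGF-β1 15.8, 13.8 and 13.3 CPM. JNKKO control had 22.8, 22.3 and 25.7 CPM, JNKKO dimerizer 17.4, 17.1 and 15.7 CPM, and JNKKO dimerizer with TGF-β1 6.30, 5.53 and 6.76 CPM. The last group was below every other library. The dimerizer raised CXCL16 1.65-fold in WT (0.73 ± 0.08, adjusted p = 6.30e-09) and lowered it 1.41-fold in JNKKO (-0.50 ± 0.08, adjusted p = 5.92e-06), with an interaction of -1.22 ± 0.11 (adjusted p = 5.29e-10). TGF-β1 lowered it by 0.56 ± 0.08 log2 in WT and by 1.43 ± 0.09 in JNKKO, and this interaction was -0.88 ± 0.12 (adjusted p = 1.76e-06), or -0.90 ± 0.12 without WT replicate 3. The WT fall was -0.51 without that library. Against its control, WT with TGF-β1 differed by 0.17 ± 0.08 (adjusted p = 0.0767), which passed on log2(TPM + 1) at 0.41 (adjusted p = 0.000491). Without WT replicate 3 this difference from control was 0.19 ± 0.09.

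CCL28, a mucosal chemokine for antibody-secreting cells, was the member that passed the test in none of the 11 comparisons. Its group means ran from 5.78 ± 0.175 CPM in JNKKO dimerizer to 7.55 ± 0.514 CPM in WT control, and neighbouring groups overlapped throughout. The fitted differences with the dimerizer were -0.24 ± 0.11 in WT (adjusted p = 0.0686) and -0.26 ± 0.12 in JNKKO (0.0787). It passed in WT with the dimerizer without WT dimerizer replicate 3 (-0.33, adjusted p = 0.0265). In the fit of the 2 JNKKO groups alone it passed with the dimerizer (-0.27, 0.0453), and on log2(TPM + 1) it passed in WT with TGF-β1 (0.24, 0.0450).

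LIF, which signals through LIFR and gp130, was the member most like CXCL14 over the 18 libraries (Pearson r of log2 CPM 0.915, a description, since libraries share groups). WT control had 3.46, 3.49 and 3.39 CPM, WT dimerizer 7.44, 8.02 and 8.57 CPM, and WT dimerizer with TGF-β1 2.75, 1.69 and 2.35 CPM. JNKKO control had 8.17, 8.69 and 8.24 CPM, JNKKO dimerizer 4.61, 6.26 and 4.05 CPM, and JNKKO dimerizer with TGF-β1 1.65, 1.68 and 1.87 CPM. Control JNKKO acini had the level of WT acini on dimerizer, with overlapping libraries, and both groups with TGF-β1 were lowest and overlapped. The dimerizer raised LIF 2.33-fold in WT (1.22 ± 0.14, adjusted p = 1.16e-08) and lowered it 1.67-fold in JNKKO (-0.74 ± 0.13, adjusted p = 4.28e-05). The interaction was -1.96 ± 0.19 (adjusted p = 2.12e-09). LIF fell by 1.82 ± 0.14 log2 with TGF-β1 in WT and fell by 1.53 ± 0.16 in JNKKO, a difference of 0.29 ± 0.23 that did not pass (adjusted p = 0.353). Without WT replicate 3 the WT fall was -1.85 and that difference 0.34. The fall against WT control in WT with TGF-β1 (-0.60 ± 0.16, adjusted p = 0.00183) was lost on log2(TPM + 1), at -0.15 (adjusted p = 0.372). Without WT replicate 3 this fall against control was -0.65 ± 0.18. IL6 itself had 7 counts in all 18 libraries together, at most 2 in any library, and 0 in 12 libraries, so no difference was detectable at this depth.

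**Figure D4:**
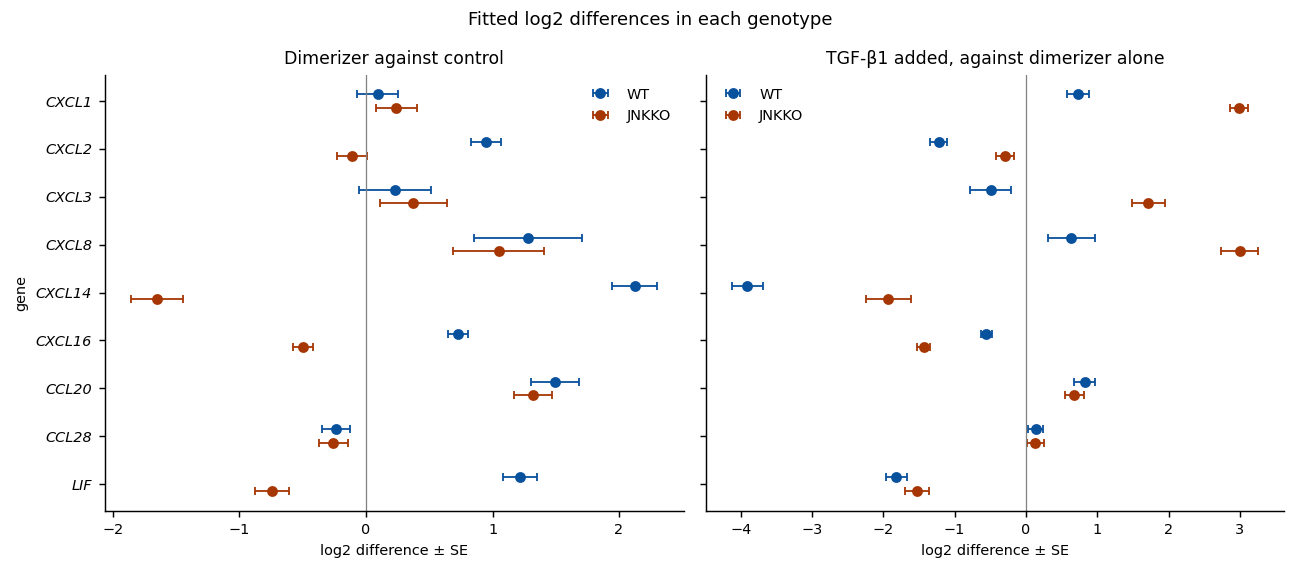
Fitted log2 differences with SE (bars) of 9 members in WT (blue) and JNKKO (red), for dimerizer against control (left) and for TGF-β1 added against dimerizer alone (right). With the dimerizer, CXCL14, CXCL16 and LIF are above 0 in WT and below 0 in JNKKO, and with TGF-β1, CXCL1, CXCL3 and CXCL8 lie further right in JNKKO.

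Counted over the 8 tested members other than CXCL14, the dimerizer raised 5 and lowered none in WT, where 55.9% of all genes were called, 30.3% higher and 25.6% lower. In JNKKO it raised CXCL8 and CCL20 and lowered CXCL16 and LIF, beside 40.4% of all genes called, 22.5% higher and 17.9% lower. TGF-β1 raised 2 and lowered 3 of the 8 in WT, beside 65.2% of all genes (33.4% higher, 31.8% lower). In JNKKO it raised 4 and lowered 3, beside 60.7% (30.5% higher, 30.3% lower). With more than 40% of all genes called each time, these counts do not set the members apart. Against their controls, both agents raised 3 and lowered 1 in WT, beside 61.8% of all genes (31.3% higher, 30.5% lower), and raised 4 and lowered 3 in JNKKO, beside 67.3% (33.8% higher, 33.4% lower). Without WT dimerizer with TGF-β1 replicate 3, both agents raised 3 and lowered 2 in WT against control. TGF-β1 then raised 2 and lowered 4 in WT against dimerizer alone. The interaction of genotype with the dimerizer was past the threshold for 3 of the 8, all lower in JNKKO, beside 42.6% of all genes (21.4% higher, 21.2% lower). That with TGF-β1 was past it for 5, with 4 higher and 1 lower in JNKKO, beside 32.9% of all genes (14.1% higher, 18.8% lower). With CXCL1, CXCL2 and CXCL3 summed into 1 gene, 3 of 6 were past it.

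Between genotypes, CXCL2, CXCL16, CCL20 and LIF were higher in JNKKO control than in WT control, 4 of 8 tested members with none lower, beside 49.3% of all genes (25.8% higher, 23.5% lower). The fold differences were 1.59 for CXCL2, 1.85 for CXCL16, 2.52 for CCL20 and 2.43 for LIF. CXCL8 was at 0.94 ± 0.46 log2 (adjusted p = 0.112, edgeR), and passed in DESeq2 (adjusted p = 0.0277). It also passed with no filter on low counts, in the fit of those 2 groups alone (0.0117) and with replicate as a block (0.0248). On the dimerizer, CCL20 was higher (1.16 ± 0.14), and CXCL2, CXCL16 and LIF were lower in JNKKO by 0.39 ± 0.11, 0.33 ± 0.08 and 0.68 ± 0.13 log2, 4 of 8 beside 40.1% of all genes (21.6% higher, 18.5% lower). There CXCL8 was at 0.71 ± 0.33 (adjusted p = 0.112), and passed with no filter on low counts (5.49e-05), in the fit of those 2 groups alone (0.00350) and with replicate as a block (0.0245). CXCL3 was at 0.57 ± 0.26 (adjusted p = 0.0851), and passed without JNKKO dimerizer replicate 1 (0.0128). The CXCL2 call was lost without WT dimerizer replicate 2 (adjusted p = 0.0604) or JNKKO dimerizer replicate 3 (0.0544). With TGF-β1 as well, CXCL1, CXCL2, CXCL3, CXCL8 and CCL20 were higher and CXCL16 lower, 6 of 8 beside 52.9% of all genes (26.5% higher, 26.4% lower). CXCL1 was 5.85-fold, CXCL3 6.91-fold and CXCL8 8.41-fold higher in JNKKO there, and CXCL2 1.45-fold. Without WT replicate 3 the log2 differences of CXCL1, CXCL3 and CXCL8 were 2.80, 3.17 and 3.57, and each passed, as did CXCL2 (0.66), CCL20 (1.16) and CXCL16 (-1.24).

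Other measures moved with these groups. The summed level of 7 immune markers was 18.4 to 26.4 CPM in both controls and WT dimerizer, 59.9 to 72.1 CPM in WT with TGF-β1, 67.4 to 82.3 CPM in JNKKO dimerizer and 101.6 to 109.7 CPM in JNKKO with TGF-β1. Most of it was CD68 and CSF1R, at 43.4 and 61.4 CPM on average in the last group. The pan-leukocyte gene PTPRC was at 0.164 CPM there and at 0.750 CPM in WT control, with 2 to 28 counts per library. The 2 pan-epithelial markers CDH1 and EPCAM summed to 41.5 to 43.5 CPM in JNKKO with TGF-β1, against 65.4 to 117.2 CPM in all other libraries. Most of this was CDH1, and EPCAM was as low in WT with TGF-β1 (2.34 CPM) as in JNKKO with TGF-β1 (2.57 CPM). The 6 fibroblast markers summed to 62.6 to 77.5 CPM in JNKKO with TGF-β1 and 90.3 to 122.1 CPM in WT with TGF-β1. Elsewhere they summed to at most 34.5 CPM. Most of the fibroblast sum was DCN, while COL1A2 had at most 4 counts. The 6 basal markers summed to 9207 to 9571 CPM in JNKKO with TGF-β1, against 10787 to 13934 CPM in the other groups. The 4 endothelial markers summed to 14.7 to 15.2 CPM in JNKKO with TGF-β1, against 17.3 to 44.6 CPM in the other groups. The part of these shifts in the chemokine differences was not tested. With mitochondrially encoded genes left out, the JNKKO rises with TGF-β1 of CXCL1, CXCL3 and CXCL8 were 3.00, 1.73 and 3.01 log2. In bulk RNA, a change in the number of cells that make a transcript and a change per cell cannot be told apart.

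Among 29 other chemokines, 3 passed the filter on low counts, and 6 had no count in any library. The neutrophil chemokines CXCL5 and CXCL6 had at most 1 count and 0 counts, and PPBP had at most 6, so few transcripts came from the CXCR2 ligands outside the 4 members. PF4, a platelet chemokine whose gene lies in the same cluster, had 29, 33 and 30 counts in the JNKKO libraries with TGF-β1, 1, 3 and 2 counts in WT with TGF-β1, and at most 1 count in any other library. Since PF4 passed the filter through the JNKKO libraries with TGF-β1 alone, no test or fold is given. PF4 alone among them reached 1 CPM on average in a group (1.07 ± 0.0469).

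The signalling receptors for the neutrophil chemokines were almost absent, with at most 13 counts of CXCR1 and 8 of CXCR2 in any library, and CCR6, the receptor of CCL20, had 0. Atypical receptors bind chemokines without the usual signal and clear or hold them. ACKR1, which binds CXCL1, CXCL8 and other inflammatory chemokines, had 1 to 5 counts in each of the 12 libraries without TGF-β1. With TGF-β1 it had 2.69, 8.95 and 6.57 CPM in WT and 53.8, 50.3 and 64.6 CPM in JNKKO. The 2 groups did not overlap, and JNKKO was higher by 3.22 ± 0.25 log2 (adjusted p = 1.20e-07). ACKR2, a scavenger of CC chemokines, went the other way between genotypes, at 9.99 ± 0.932 CPM in WT and 3.74 ± 0.298 CPM in JNKKO with TGF-β1 (-1.42 ± 0.14), and at most 1.03 CPM in each library without it. ACKR4 had at most 12 counts in any library. ACKR3, which binds CXCL12, had 3.75 ± 0.544 and 8.47 ± 0.980 CPM with TGF-β1, and CXCR4 rose with the dimerizer in WT (1.26 ± 0.19) and fell in JNKKO (-1.45 ± 0.16), with an interaction of -2.71 ± 0.25 (adjusted p = 9.97e-10). In all, 9 of 22 chemokine receptors were tested, and TGF-β1 raised 5 and lowered 1 in JNKKO, and raised 4 and lowered 2 in WT, beside 60.7% and 65.2% of all genes called.

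Of 9 other interleukin-6 family genes, 5 were tested, and TGF-β1 raised 4 of the 5 in each genotype, beside 33.4% of all genes called higher in WT and 30.5% in JNKKO. IL11, which signals through gp130, rose from 2.31 ± 0.395 to 17.4 ± 1.89 CPM in WT (2.91 ± 0.17 log2) and from 5.45 ± 1.89 to 14.6 ± 0.387 CPM in JNKKO (1.41 ± 0.16), and this difference between genotypes passed (-1.51 ± 0.24, adjusted p = 6.83e-05). CLCF1 rose by 1.71 ± 0.15 and 1.15 ± 0.13 log2.

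**Figure D5:**
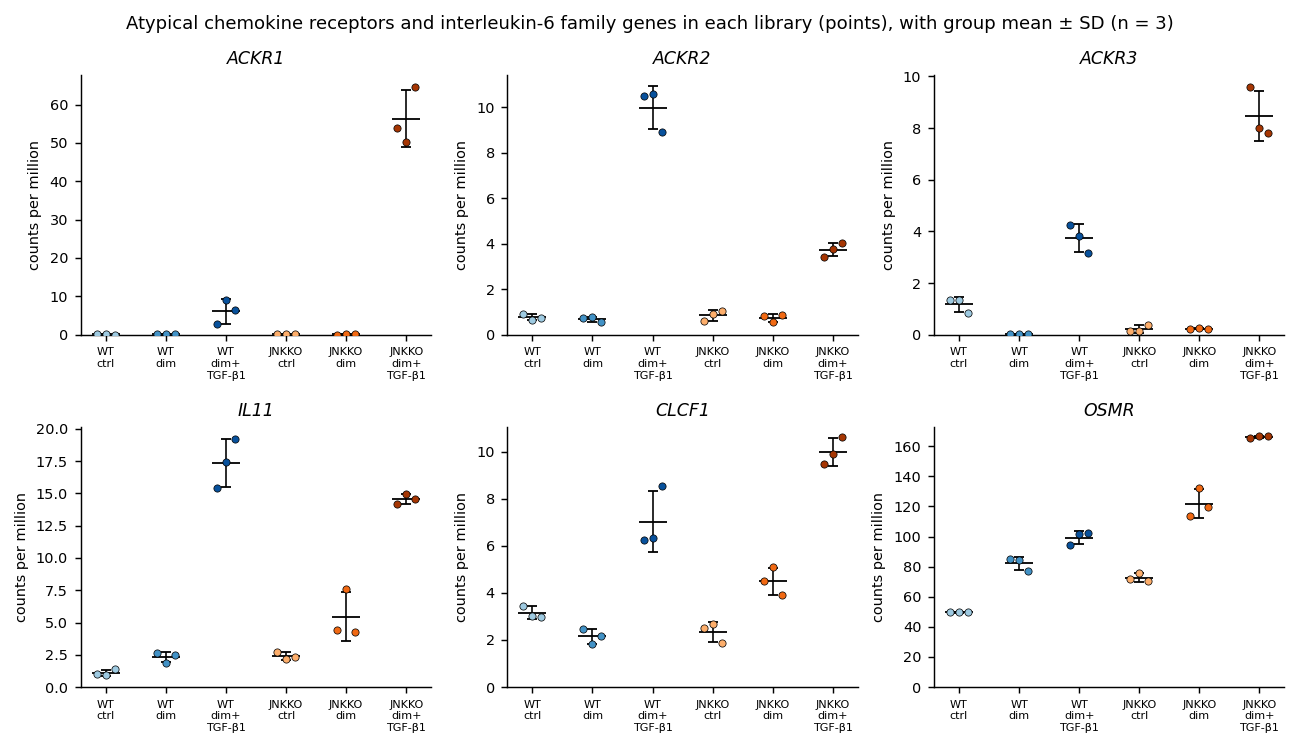
CPM of 3 atypical chemokine receptors and 3 interleukin-6 family genes in each library (points), with the mean and SD of 3 libraries (bars); group names as in the plot of the members, each panel on its own scale from 0. ACKR1 is at 50.3 to 64.6 CPM in JNKKO dimerizer with TGF-β1 and at most 8.95 CPM in every other library.

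Of 17 receptors and JAK-STAT3 genes of the family, 16 were tested. In JNKKO, TGF-β1 raised 5 and lowered 6 of them, beside 30.5% of all genes higher and 30.3% lower. STAT3 fell there by 0.43 ± 0.03 log2 and IL6R by 1.14 ± 0.07. In WT, IL6R was also lower, at 79.5 ± 9.54 CPM with TGF-β1 against 139.0 ± 6.35 CPM on dimerizer alone. With both agents STAT3 was lower in JNKKO than in WT, at 153.7 ± 0.489 against 261.7 ± 9.90 CPM (-0.77 ± 0.03, adjusted p = 5.86e-17). LIFR, the receptor of LIF, fell with the dimerizer in JNKKO by 0.81 ± 0.08, alongside LIF. OSMR, the oncostatin M receptor, went from 49.8 ± 0.261 CPM in WT control to 166.4 ± 0.641 CPM in JNKKO dimerizer with TGF-β1, and was higher in JNKKO than in WT in each treatment (0.54, 0.57 and 0.74 log2, each past the threshold). SOCS1, a brake on JAK kinases, fell by 1.86 ± 0.14 with the dimerizer in WT. In JNKKO, SOCS1 was at 3.28 ± 0.728 CPM on dimerizer against 5.34 ± 0.719 CPM in control.

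All 15 listed NF-κB and C/EBP regulators were tested. In JNKKO, TGF-β1 raised 3 and lowered 6 of them, against 3 and 6 in WT, beside the 60.7% and 65.2% of all genes called. NFKBIZ, a nuclear cofactor of NF-κB, rose by 0.98 ± 0.07 log2 in JNKKO and 0.61 ± 0.07 in WT. BIRC3, an NF-κB target that also acts in the pathway, fell by 2.00 ± 0.08 and 2.03 ± 0.08, and NFKB1 fell by 0.38 ± 0.05 in JNKKO. In WT, NFKB1 was also lower, at 64.5 ± 4.24 CPM with TGF-β1 against 75.1 ± 3.29 CPM on dimerizer alone. The list held calls in both directions in each genotype, and the activity of NF-κB was not tested. Of 16 upstream inflammatory ligands and receptors, 13 were tested, and with both agents 7 were higher and 5 lower in JNKKO than in WT, beside 26.5% of all genes higher and 26.4% lower. IL1RN, the antagonist of interleukin-1, was higher there by 1.69 ± 0.14 and IL1R1, the interleukin-1 receptor, lower by 0.88 ± 0.06. With both agents, IL1B was at 15.1 ± 1.05 CPM in JNKKO and 2.62 ± 0.330 CPM in WT. IL1A was at 49.8 ± 1.11 and 30.4 ± 1.35 CPM, and IL1RAP at 50.9 ± 1.95 and 32.7 ± 0.946 CPM. On dimerizer alone, JNKKO was already at 13.3 ± 6.93 CPM of IL1B, 61.6 ± 14.5 of IL1A and 54.8 ± 5.89 of IL1RAP. WT on dimerizer alone was at 3.69 ± 0.541, 35.4 ± 1.72 and 34.1 ± 0.137 CPM. These levels are given without a test. TLR2 had at most 3 counts in each library of both controls and WT dimerizer, and rose with the dimerizer in JNKKO to 1.25 ± 0.338 CPM (adjusted p = 3.29e-08, edgeR).

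All 9 listed mRNA decay factors were tested, and TGF-β1 raised 5 and lowered 2 of them in JNKKO, beside 30.5% of all genes higher and 30.3% lower. ZFP36L1 rose with the dimerizer in JNKKO by 1.04 ± 0.04 log2 and with TGF-β1 by a further 0.53 ± 0.04, to 624.8 ± 11.9 CPM, the group in which CXCL1 and CXCL8 were also highest. ZFP36 fell with the dimerizer in WT (-0.51 ± 0.05) and rose in JNKKO (0.53 ± 0.05). All 4 genes listed for the shedding of CXCL16 were tested. ADAM10, its main sheddase, rose with the dimerizer by 0.56 ± 0.04 in WT and 0.24 ± 0.04 in JNKKO, and RHBDF1 rose with TGF-β1 by 2.03 ± 0.08 and 1.27 ± 0.08, while CXCL16 mRNA fell.

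Likeness of profile was measured as the Pearson r of log2 CPM over the 18 libraries, among 10599 tested genes with a mean of at least 5 CPM. It is a description, since libraries of a group are alike in many genes. Nearest to CXCL1 were KDELC1 (r = 0.98), FBN1 and MAN1A1 (both 0.97), and nearest to CCL20 were HMGA2 (0.99), OSMR and SOCS2 (both 0.98). HMGA2 went from 37.2 CPM in WT control to 405.1 CPM in JNKKO dimerizer with TGF-β1. Nearest to LIF were AGPAT3, ICOSLG and SAA2 (each 0.98), and nearest to CXCL14 were CREBZF, ITPR2 and STRBP (each 0.97). Among the members, CXCL1 and CXCL8 were at r = 0.94, LIF and CXCL16 at 0.88, and CXCL1 and CXCL16 at -0.87, whereas CXCL1 and CXCL2 were at -0.20.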

How the data were processed

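RNA from 18 libraries of MCF-10A.B2 acini was sequenced after oligo(dT) selection and ribosomal depletion, per the labels' protocols. The submitters' processing notes name cutadapt, RSEM and the build hg38, without versions. Which aligner and annotation were used, and whether counting was stranded, is not given in the sources used here. The authors deposited expected counts per gene and TPM, per the file headers.

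Expected counts were rounded and tested with edgeR 4.0.16 (quasi-likelihood, robust) in R 4.3.3, with 1 mean per group, TMM factors of 0.962 to 1.04 and the default filter on low counts. This kept 16911 genes, with 9 of the 10 members. P-values were adjusted by Benjamini-Hochberg over these genes in each of 11 comparisons, with a threshold of 0.05. CPM uses the TMM-scaled totals. The fit was tested on simulated data. Totals of 24243537 to 34499651 limit precision for members with few counts. Replicate pairs differed by more than sampling noise, and each library was counted once. That excess does not show that the libraries of a group were separate cultures.

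Alternatives were DESeq2 1.42.0, RLE factors, no filter, limma 3.58.1 on log2(TPM + 1) or log2(TPM + 0.1), only the groups compared, a replicate block, mitochondrial genes left out, CXCL1 to CXCL3 summed, and each library left out. Replicate numbers come from the titles.

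The members and lists were chosen with earlier results of these data known. The members were named throughout, with MAPK8 and MAPK9. From each list and comparison, up to 3 called genes with the smallest adjusted p that reached 1 CPM in the higher group could be named. For likeness, the 3 genes with the highest r were taken. Genes named for low counts or absence, and IL1A, IL1B and IL1RAP, were chosen after their values were seen. Values of 1 listed gene are not reported here. The lists were other chemokines, chemokine receptors, other interleukin-6 family cytokines, their receptors and JAK-STAT3 signalling, NF-κB and C/EBP regulators, upstream inflammatory ligands and receptors, mRNA decay factors, and CXCL16 sheddases. Sequences came from RefSeq (GRCh38.p14) and GENCODE 29 transcripts, aligned with Biopython 1.88. Tables and figures used Python 3.11.15 with pandas 2.3.3, numpy 2.4.6, matplotlib 3.10.9 and scipy 1.17.1.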

Additional observations from a re-analysis of the deposited data

Results flagged for a closer look

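With the dimerizer, the response differed between JNKKO and WT in 3 of 8 tested members, each by the test of the interaction. Of all genes, 42.6% were called in that test, so this count does not set the members apart. The difference was -1.06 log2 for CXCL2, -1.22 for CXCL16 and -1.96 for LIF. CXCL16 and LIF rose in WT and fell in JNKKO, whereas CXCL2 rose in WT and did not pass in JNKKO.

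With TGF-β1 added to the dimerizer, the response differed between genotypes in 5 of 8 tested members, beside 32.9% of all genes called. It was higher in JNKKO by 2.26 log2 for CXCL1, 0.93 for CXCL2, 2.21 for CXCL3 and 2.36 for CXCL8. For CXCL16 the difference was -0.88, a deeper fall in JNKKO.

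All 3 WT libraries on dimerizer were above all WT controls in CXCL14 (2.12 log2), and all 3 JNKKO libraries on dimerizer were below all JNKKO controls (-1.65). The difference was not tested, because CXCL14 was chosen for it.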

How the results depend on the processing

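Counts of called members and of all called genes stayed within 1.5 times of the reported counts in all 11 comparisons and under all alternatives but 1. With CXCL1, CXCL2 and CXCL3 summed, 3 of 6 members passed the interaction of genotype with TGF-β1 in place of 5 of 8. Of these, 2 were higher and 1 lower in JNKKO. CXCL1, CXCL2 and CXCL3, each called on its own, then counted as 1 gene. Leaving out 1 library gave 4 to 6 called members for the dimerizer in WT, 3 to 4 in JNKKO, 5 to 6 for TGF-β1 in WT and 6 to 7 in JNKKO. It gave 3 to 5 for JNKKO against WT on dimerizer and 5 in each fit for the interaction with TGF-β1.

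Signs turned only for differences near 0 that passed no test. On log2(TPM + 1), with or without the filter, these were CCL28 in WT with both agents against control (0.11), the dimerizer interactions of CXCL1 (-0.0095) and CXCL3 (-0.022), and the TGF-β1 interaction of CCL20 (0.046). On log2(TPM + 0.1) the same 4 were at 0.13, -0.014, -0.067 and 0.021. The TGF-β1 interaction of CCL28 turned in DESeq2 (0.0153), with RLE factors (0.0152) and without mitochondrial genes (0.0199). Leaving out 1 library, the dimerizer interaction ran from -0.12 to 0.40 for CXCL3, from -0.54 to 0.031 for CXCL8 and from -0.14 to 0.073 for CCL28. The TGF-β1 interaction ran from -0.28 to 0.044 for CCL20 and from -0.10 to 0.11 for CCL28. The cause was not tested.

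Replicate numbers gave no sign of pairing: deviations of same-numbered libraries correlated at -0.0624 to 0.0767, and 8 of 18 libraries correlated best with their own number. With replicate as a block, 9469 genes were called for the dimerizer in WT against 9451, and CXCL8 passed in WT with TGF-β1 against dimerizer (0.62, adjusted p = 0.0286), and in JNKKO against WT in control (0.94, 0.0248) and on dimerizer (0.70, 0.0245). Depth limits IL6, CXCL14 with TGF-β1 and CXCL8 in WT control, which rest on few counts.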
